A study of Homo sapiens with 16 samples.

Results

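The 9 genes described here build or supply the MHC class I molecule: the heavy chains HLA-B, HLA-C, HLA-E and HLA-F, the light chain B2M, the peptide transporter genes TAP1 and TAP2, the loading chaperone gene TAPBP, and NLRC5, a transactivator of class I genes. They were taken by their symbols in GENCODE release 29 on the primary assembly, a rule that reads no measured value but was set with earlier results of these data known, and are 9 of 58295 annotated genes. All 9 were among the 18073 genes that passed a filter on low counts and were tested. In class I presentation, proteasomes cut proteins into peptides, TAP carries the peptides into the endoplasmic reticulum, and tapasin holds the heavy chain near TAP until a peptide fits. The filled complex of heavy chain, light chain and peptide then moves to the surface, where CD8+ T cells and natural killer cells read it. Class I promoters are classically described as carrying an upstream enhancer bound by NF-kB and interferon regulatory factors and a downstream SXY module bound by RFX, CREB/ATF and NF-Y proteins, through which NLRC5 acts.

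RNA came from JSL1, a clone of the established human leukemic T cell line Jurkat. Cells were wild type (WT) for HDAC7, or had been edited by CRISPR either to lack exon 9 of HDAC7 (dE9) or to carry a knock-in meant to keep it (iE9). The HDAC7 protein, a histone deacetylase of class IIa, represses transcription in T cells. Each line was kept in growth medium or given the phorbol ester PMA (20 ng/mL), an activator of protein kinase C, and the sample labels put all libraries at 48 h, although the design text describes the unstimulated cells as time 0. WT had 2 libraries per treatment and each edited line had 3, 16 in all. The labels do not say whether libraries came from separate cultures, or whether an edited line is 1 clone, and the p-values therefore reflect library-to-library spread that may be technical. Effects of exon 9 and of other differences between lines cannot be told apart.

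Depth ran from 14536537 to 21888896 estimated counts per library. Transcripts holding HDAC7 exon 9 made up 43.08% to 53.76% of the transcripts spanning it in WT, at most 7.37% in dE9, and 42.31% to 74.85% in iE9. The range in PMA-treated iE9 cells overlapped that of WT, so this line is called iE9-labelled throughout. The 8 T cell markers were all detected, at a summed 1302 to 3217 CPM (counts scaled to library size). Both iE9-labelled libraries numbered 1 stood apart, with 9.17% and 12.81% of counts from mitochondrially encoded genes against 3.0% to 6.39% in the others. The PMA-treated dE9 library 1 also stood apart, with a chi-square per degree of freedom over genes of 102 and 116 against its replicates, which gave 53.1 against each other. In bulk RNA, more cells with a transcript and more of it per cell cannot be told apart.

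PMA raised most of the class I machinery in every line. By edgeR's quasi-likelihood test, with a gene called when its Benjamini-Hochberg adjusted p over all tested genes was under 0.05, 7 of the 9 genes rose in WT, 8 in dE9 and 7 in iE9-labelled cells. Of all tested genes, 11.1% were called higher in WT, 17.1% in dE9 and 12.6% in iE9-labelled cells. None of the 9 was called lower, where 11.3%, 16.5% and 14.4% of all tested genes were. The median log2 fold change of the 9 genes was 2.0, 2.25 and 1.86 in that order, beside 0.03, 0.06 and -0.01 over all tested genes. HLA-B, HLA-E and HLA-F had the largest changes, HLA-C and NLRC5 came next, and the light chain, the transporter and tapasin had smaller ones. The numbers called were also 7, 8 and 7 without the 3 libraries that stood apart. In WT, the count fell to 3 when either unstimulated library or PMA library 1 was left out, and to 5 without PMA library 2. HLA-B, HLA-E and NLRC5 were called in WT in each of the 16 fits that left out 1 library.

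**Figure D1:**
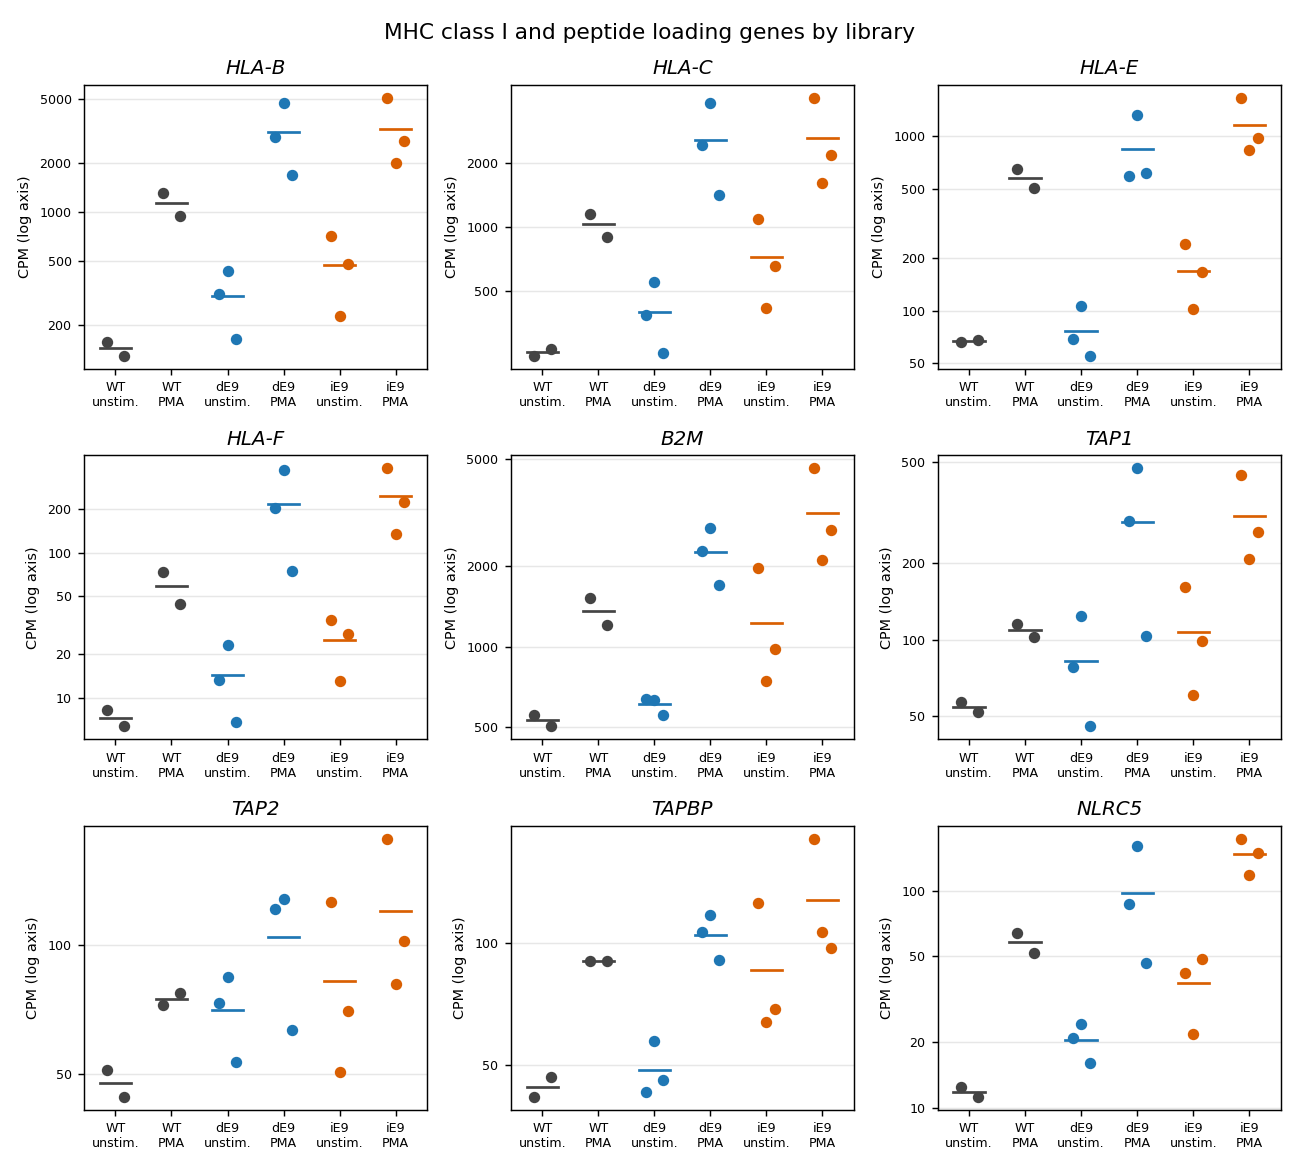
Level of each gene in every library, in CPM on a log axis, by line and treatment (points are libraries, bars are group means). All 4 heavy chain genes have every PMA library above every unstimulated library of its line, whereas TAP2 does so in WT and not in the edited lines. The share of all tested genes separated in this way was not counted.

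HLA-B encodes a classical heavy chain, one of the polymorphic molecules that show peptides to CD8+ T cells. Its annotated span is chr6:31269491-31357188 on the minus strand (GRCh38), and it overlaps HLA-C on the same strand. In WT it was at 158 and 129 CPM without PMA and at 1305 and 948 CPM with it. In dE9 the values were 313, 430 and 163 CPM without PMA and 2903, 4684 and 1694 CPM with it. In iE9-labelled cells they were 711, 226 and 476 CPM, then 5054, 1991 and 2754 CPM. Treated and untreated libraries did not overlap in any line, and the lowest treated library anywhere, a WT one, exceeded the highest untreated one. For such separation by treatment, here and for the genes below, the share over all tested genes was not counted. It is a description only. HLA-B rose 7.86-fold in WT (log2 2.97 ± 0.61 SE, adjusted p = 0.00357), 10.2-fold in dE9 (3.36 ± 0.51, adjusted p = 0.000213) and 6.94-fold in iE9-labelled cells (2.79 ± 0.50, adjusted p = 0.000954).

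HLA-C (chr6:31268749-31272130, minus strand) is the other classical heavy chain gene of the set, and its product is a main ligand of killer cell immunoglobulin-like receptors. WT cells had 248 and 267 CPM without PMA and 1157 and 902 CPM with it. In dE9 the levels were 388, 554 and 255 CPM, then 2431, 3850 and 1414 CPM. In iE9-labelled cells they were 1088, 417 and 656 CPM, then 4050, 1619 and 2186 CPM. The treatments again did not overlap within a line. HLA-C rose 4.0-fold in WT (adjusted p = 0.0159), 6.43-fold in dE9 (adjusted p = 0.000450) and 3.63-fold in iE9-labelled cells (adjusted p = 0.00571), with log2 values of 2.0 ± 0.54, 2.68 ± 0.45 and 1.86 ± 0.44.

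HLA-E (chr6:30489467-30494205, plus strand) encodes a nonclassical heavy chain that presents signal peptides of other class I chains to the CD94/NKG2 receptors of natural killer cells. WT cells held 65.8 and 68.4 CPM without PMA and 648 and 509 CPM with it. In dE9 it went from 69.0, 106 and 55.1 CPM to 597, 1335 and 620 CPM. In iE9-labelled cells it went from 240, 103 and 166 CPM to 1666, 835 and 983 CPM. Every treated library was above every untreated one across the 3 lines. HLA-E rose 8.63-fold in WT (log2 3.11 ± 0.49, adjusted p = 0.000748), 11.1-fold in dE9 (3.47 ± 0.41, adjusted p = 3.34e-05) and 6.85-fold in iE9-labelled cells (2.78 ± 0.40, adjusted p = 0.000185).

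HLA-F (chr6:29722775-29738528, plus strand), a nonclassical heavy chain gene of more restricted expression, was the lowest of the 4 heavy chains. It stood at 8.24 and 6.40 CPM in untreated WT and at 73.7 and 44.6 CPM after PMA. In dE9 it was at 13.4, 23.1 and 6.89 CPM, then 203, 368 and 74.7 CPM. In iE9-labelled cells it was at 34.5, 13.2 and 27.6 CPM, then 379, 134 and 224 CPM. No treated library of any line fell as low as an untreated one. HLA-F had the largest log2 change of the 9 genes in dE9 (3.89 ± 0.61, 14.8-fold, adjusted p = 0.000265) and in iE9-labelled cells (3.29 ± 0.59, 9.80-fold, adjusted p = 0.000999), and rose 8.08-fold in WT (3.01 ± 0.73, adjusted p = 0.00925).

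The upstream sequences of the heavy chain genes are shown because these genes moved together. They are the 250 bases before the transcript start in RefSeq (GRCh38.p14), written 5′ to 3′ on the gene's strand. They run over chr6:31357180-31357429 (minus strand) for HLA-B, chr6:31272093-31272342 (minus strand) for HLA-C and chr6:29723184-29723433 (plus strand) for HLA-F. Of the 9 genes, 7 had a sequence in the RefSeq table. Capitals mark matches, on either strand, to 2 forms of the interferon response element (GAAANNGAA and GAANNGAAA, which can overlap), to the kappa B motif bound by NF-kB (GGGANTNNC), and to TGACG followed by ATTGG after 15 to 25 bases. That last pair joins the cores of a CREB/ATF site and of an inverted CCAAT box, which NF-Y binds.
HLA-B: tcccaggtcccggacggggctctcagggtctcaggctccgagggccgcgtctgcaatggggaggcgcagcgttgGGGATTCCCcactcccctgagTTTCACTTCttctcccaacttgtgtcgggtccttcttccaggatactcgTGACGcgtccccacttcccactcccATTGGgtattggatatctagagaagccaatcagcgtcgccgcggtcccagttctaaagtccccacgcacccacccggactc
HLA-C: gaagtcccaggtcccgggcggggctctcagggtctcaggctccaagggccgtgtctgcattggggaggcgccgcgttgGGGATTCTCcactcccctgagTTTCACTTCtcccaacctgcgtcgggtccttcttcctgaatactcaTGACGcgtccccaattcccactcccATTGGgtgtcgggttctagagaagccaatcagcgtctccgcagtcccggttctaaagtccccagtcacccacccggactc
HLA-F: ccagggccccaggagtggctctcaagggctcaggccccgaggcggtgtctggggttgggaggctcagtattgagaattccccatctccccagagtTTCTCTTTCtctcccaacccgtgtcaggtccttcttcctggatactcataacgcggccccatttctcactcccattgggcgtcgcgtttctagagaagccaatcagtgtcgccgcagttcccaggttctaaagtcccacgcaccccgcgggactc

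HLA-B and HLA-C had the same order of matches: kappa B, then the interferon form GAANNGAAA, then TGACG with ATTGG 20 bases further on. The TGACG and ATTGG pair was in 0.407% of 35116 RefSeq promoters of the same length, the kappa B motif in 13.2% and the interferon form GAANNGAAA in 6.56%. HLA-F held 1 match to the other interferon form, GAAANNGAA, present in 6.88% of promoters, and no kappa B motif or TGACG and ATTGG pair by these letters. These are matches of letters in 1 window of the reference, and they are a description of the sequences.

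The heavy chains did not rise by the same amount, and their order changed. Within the summed TPM (a level per transcript length) of these 4 genes, HLA-C had the highest TPM in all 8 untreated libraries and HLA-B in all 8 treated ones. HLA-C made up 55.1% ± 2.70 of the sum in untreated WT (SD, n = 2) and 39.3% ± 1.01 after PMA. Its share went from 49.8% ± 2.35 to 39.3% ± 0.635 in dE9 (n = 3) and from 54.2% ± 3.38 to 36.9% ± 0.161 in iE9-labelled cells (n = 3). HLA-B moved the opposite way, from 33.2% to 43.3% in WT, from 41.4% to 47.9% in dE9 and from 34.9% to 47.3% in iE9-labelled cells. For both genes the ranges of treated and untreated libraries were apart in every line, and these shares were not tested. The share of HLA-E went from 9.48% to 14.2% in WT, where the exact two-sided permutation test gave p = 0.333, the smallest that 2 against 2 allows. In dE9 it went from 6.42% to 8.62% (exact permutation p = 0.300, ranges overlapping), and in iE9-labelled cells from 8.26% to 11.2% (exact permutation p = 0.100, the smallest that 3 against 3 allows). HLA-B and HLA-C transcripts shared 281 sequences of 31 bases, out of 3173 in HLA-B and 2693 in HLA-C, and quantification used reference transcripts of polymorphic genes. The effect of either on these shares was not tested.

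B2M (chr15:44711487-44718877, plus strand) encodes the invariant light chain, which all 4 heavy chains need to fold. It had the highest TPM of the 9 genes in each of the 6 groups. WT cells had 558 and 504 CPM without PMA and 1519 and 1200 CPM with it. In dE9 the levels were 640, 632 and 558 CPM, then 2276, 2760 and 1692 CPM. In iE9-labelled cells they were 1955, 742 and 978 CPM, then 4612, 2095 and 2723 CPM. Treated libraries were above untreated ones within each line, but untreated iE9-labelled library 1 exceeded both treated WT libraries. B2M rose 2.56-fold in WT (log2 1.36 ± 0.42, adjusted p = 0.0301), 3.67-fold in dE9 (1.88 ± 0.35, adjusted p = 0.000881) and 2.57-fold in iE9-labelled cells (1.36 ± 0.34, adjusted p = 0.00853).

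The heavy chain transcripts therefore grew relative to those of the light chain. The summed TPM of the 4 heavy chain genes divided by that of B2M was 0.380 ± 0.0323 in untreated WT and 0.857 ± 0.111 after PMA (SD, n = 2). The ratio was 0.522 ± 0.172 and 1.24 ± 0.298 in dE9 (n = 3). It was 0.482 ± 0.0683 and 0.909 ± 0.0715 in iE9-labelled cells (n = 3). The ranges of treated and untreated libraries did not overlap in any line. The sum itself rose from a mean of 396 to 2483 TPM in WT, from 684 to 5920 TPM in dE9 and from 1179 to 6486 TPM in iE9-labelled cells.

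The B2M promoter is shown for comparison with the heavy chain promoters. It covers chr15:44711267-44711516 on the plus strand, with capitals as before.
B2M: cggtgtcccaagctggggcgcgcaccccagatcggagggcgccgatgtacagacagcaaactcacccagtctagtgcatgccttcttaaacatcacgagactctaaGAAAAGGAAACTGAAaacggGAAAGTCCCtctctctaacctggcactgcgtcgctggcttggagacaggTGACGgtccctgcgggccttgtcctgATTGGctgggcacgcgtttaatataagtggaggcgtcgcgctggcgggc
It held overlapping matches to GAAANNGAA shortly before a kappa B motif, and a TGACG and ATTGG pair 21 bases apart. This was the same pair that HLA-B and HLA-C held at 20 bases, in the same order towards the start. In B2M the interferon element lay upstream of the kappa B motif, and in HLA-B and HLA-C downstream of it.

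**Figure D2:**
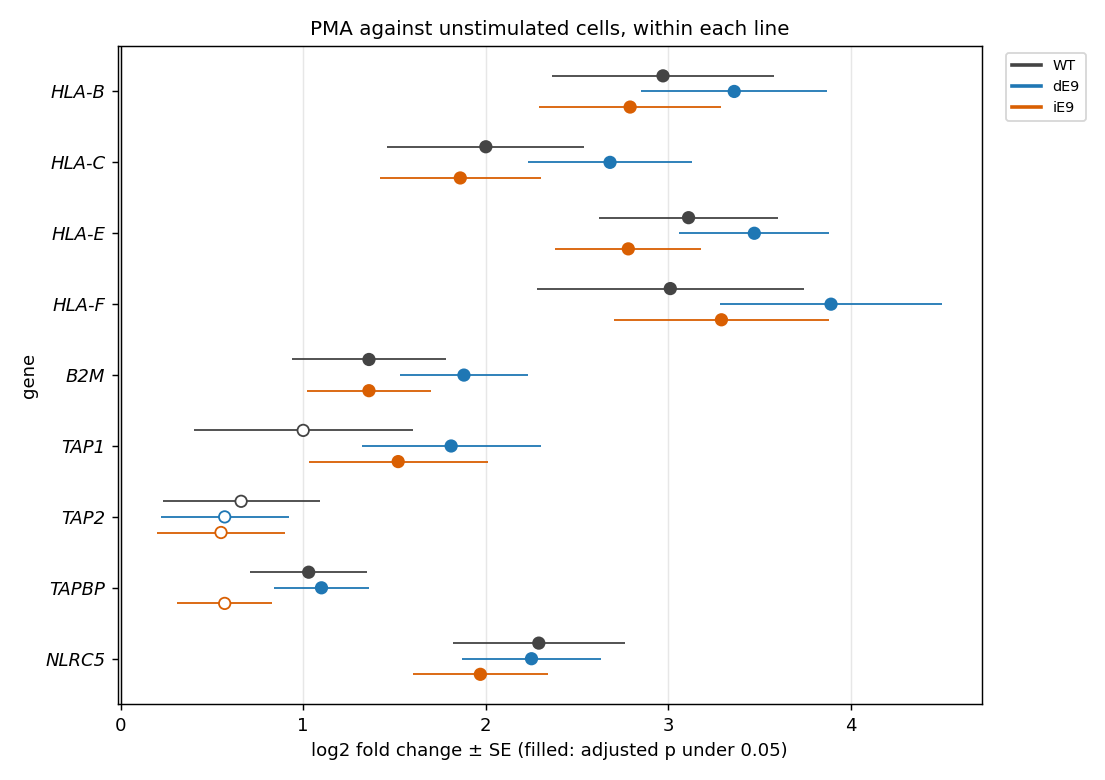
Log2 fold change of each gene between PMA-treated and unstimulated cells within each line, with its standard error (filled points have an adjusted p under 0.05). Heavy chain values lie between 1.86 and 3.89, above all values of TAP1, TAP2 and TAPBP.

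TAP1 and TAP2 encode the subunits of the peptide transporter, which work as a pair. TAP1 (chr6:32845209-32853978, minus strand) was at 57.2 and 52.1 CPM in untreated WT and at 116 and 103 CPM after PMA, a log2 change of 1.0 ± 0.60 that was not called (adjusted p = 0.248). In dE9 it went from 78.3, 124 and 45.7 CPM to 294, 473 and 104 CPM, so the lowest treated library lay under the highest untreated one. In iE9-labelled cells it went from 162, 60.9 and 99.3 CPM to 447, 209 and 266 CPM, with no overlap. TAP1 rose 3.52-fold in dE9 (log2 1.81 ± 0.49, adjusted p = 0.0109) and 2.86-fold in iE9-labelled cells (1.52 ± 0.49, adjusted p = 0.0325). PSMB8-AS1, an antisense gene overlapping TAP1, was at 4.40 to 4.57 TPM in untreated and 19.0 to 24.6 TPM in treated WT. TAP1 shared 431 of its 4849 sequences of 31 bases with PSMB8-AS1. The strandedness of the libraries is not given in the sources used here, so reads of the 2 genes may not be told apart there.

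TAP2 (chr6:32821833-32838780, minus strand) was not called in any line. Its level was 50.9 and 44.1 CPM in untreated WT and 72.2 and 77.3 CPM in treated WT (log2 0.66 ± 0.43, adjusted p = 0.298). In dE9 the values were 73.3, 84.1 and 53.3 CPM, then 121, 128 and 63.3 CPM. In iE9-labelled cells they were 126, 50.3 and 70.0 CPM, then 177, 80.9 and 102 CPM. The treatments overlapped in both edited lines, where the log2 changes were 0.57 ± 0.35 (adjusted p = 0.232) and 0.55 ± 0.35 (adjusted p = 0.268). Library numbers were taken to pair the treatments within the edited lines, and every numbered pair was higher with PMA. No label gives this pairing. It was inferred from correlations in these same data, and results with the replicate number as a block rest on that choice. With the replicate number as a block, TAP2 was called higher in dE9 (log2 0.53 ± 0.12, adjusted p = 0.00472) and in iE9-labelled cells (0.57 ± 0.12, adjusted p = 0.00363).

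Most TAP2 TPM was not assigned to coding transcripts. The tests used counts, which are not divided by transcript length, and shares of counts may differ from these. The noncoding transcript TAP2-204 took 55.4% to 71.9% of TAP2 TPM as a group mean, and protein-coding transcripts took 26.2% to 39.3%. For TAP1, coding transcripts took 50.7% to 65.3%, and most of the remainder was the noncoding TAP1-205. TAP2 shared 2036 of its 6417 sequences of 31 bases with AL669918.1, a gene on the same strand that was at 4.69 to 20.1 TPM. With only protein-coding transcripts counted, a choice made after the data were seen, TAP2 was again not called in WT (log2 0.76, adjusted p = 0.260), dE9 (0.63, adjusted p = 0.215) or iE9-labelled cells (0.64, adjusted p = 0.220).

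The upstream sequences of both transporter genes are shown because these genes encode the subunits of 1 transporter. TAP1 has more than 1 start in RefSeq, and the outermost is used, chr6:32853705-32853954 on the minus strand. The TAP2 window is chr6:32838740-32838989 on the minus strand.
TAP1: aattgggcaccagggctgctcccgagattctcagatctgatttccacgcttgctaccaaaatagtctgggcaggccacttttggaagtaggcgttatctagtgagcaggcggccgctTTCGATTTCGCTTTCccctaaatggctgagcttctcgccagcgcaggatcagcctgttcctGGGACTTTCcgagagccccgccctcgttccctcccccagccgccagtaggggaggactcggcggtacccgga
TAP2: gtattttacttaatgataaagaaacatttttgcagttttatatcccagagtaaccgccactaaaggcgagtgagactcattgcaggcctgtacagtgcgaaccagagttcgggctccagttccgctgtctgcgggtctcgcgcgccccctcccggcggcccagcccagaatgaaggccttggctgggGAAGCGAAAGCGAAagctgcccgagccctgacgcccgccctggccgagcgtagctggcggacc
The TAP1 window held overlapping matches to GAAANNGAA and a kappa B motif nearer the start. TAP2 held both interferon forms in an overlapping run and no kappa B motif by these letters. Neither window held the TGACG and ATTGG pair. The window before the other TAP1 start, chr6:32852762-32853011, held no match to any of these motifs.

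TAPBP (chr6:33299694-33314387, minus strand) encodes tapasin, the chaperone that bridges TAP and the empty heavy chain and edits the peptide. Its levels were 41.8 and 46.7 CPM in untreated WT and 90.4 and 90.2 CPM after PMA. In dE9 they were 42.9, 57.2 and 45.9 CPM, then 106, 117 and 90.6 CPM. In iE9-labelled cells they were 125, 64.0 and 68.7 CPM, then 180, 106 and 97.1 CPM. The treatments did not overlap in WT or dE9, and in iE9-labelled cells untreated library 1 lay above treated libraries 2 and 3. TAPBP rose 2.04-fold in WT (log2 1.03 ± 0.32, adjusted p = 0.0338) and 2.15-fold in dE9 (1.10 ± 0.26, adjusted p = 0.00518). In iE9-labelled cells its log2 change was 0.57 ± 0.26 (adjusted p = 0.121), and with the replicate block it was called (0.58 ± 0.10, adjusted p = 0.00166). The RefSeq window of TAPBP, chr6:33314079-33314328 on the minus strand, held a kappa B motif and, closer to the start, overlapping matches to GAAANNGAA.

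NLRC5 (chr16:56989485-57083531, plus strand) is a NOD-like receptor family protein that acts in the nucleus on class I promoters, and is itself inducible by interferon gamma. As a group mean it had the lowest TPM of the 9 genes in every untreated group and in treated WT. Its levels were 12.5 and 11.2 CPM in untreated WT and 63.8 and 51.7 CPM after PMA. In dE9 they were 21.0, 24.3 and 16 CPM, then 86.3, 160 and 46.2 CPM. In iE9-labelled cells they were 41.9, 21.9 and 48.4 CPM, then 173, 118 and 149 CPM. No treated library overlapped an untreated one of its line. NLRC5 rose 4.88-fold in WT (log2 2.29 ± 0.47, adjusted p = 0.00351), 4.77-fold in dE9 (2.25 ± 0.38, adjusted p = 0.000458) and 3.91-fold in iE9-labelled cells (1.97 ± 0.37, adjusted p = 0.00151).

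The kinds of NLRC5 transcript shifted with PMA. Transcripts annotated as targets of nonsense-mediated decay made up 6.90% to 8.95% of NLRC5 TPM in untreated WT and 25.6% to 39.2% in treated WT. They went from 1.61% to 14.2% up to 25.8% to 29.8% in dE9, and from 3.76% to 18.1% up to 19.0% to 26.1% in iE9-labelled cells. The ranges did not overlap in any line. Protein-coding transcripts fell from a mean share of 32.2% to 16.4% in WT and from 39.7% to 19.1% in dE9, again without overlap. In iE9-labelled cells the coding share was 29.2% before and 31.3% after PMA, with overlapping ranges, and the difference between lines was not tested. The TPM of coding NLRC5 transcripts was 1.94 ± 0.213 in untreated and 5.72 ± 0.798 in treated WT (SD, n = 2). It was 3.74 ± 1.05 and 10.7 ± 7.63 in dE9, and 5.81 ± 2.39 and 21.9 ± 3.02 in iE9-labelled cells (n = 3). With only protein-coding transcripts counted, NLRC5 was no longer called in WT (log2 1.10 ± 0.58, adjusted p = 0.178), and it was called in dE9 (1.65 ± 0.47, adjusted p = 0.0127) and in iE9-labelled cells (1.95 ± 0.47, adjusted p = 0.00619). These shares are Salmon's estimates over 29 annotated transcripts, and at single transcripts they varied widely between replicates.

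**Figure D3:**
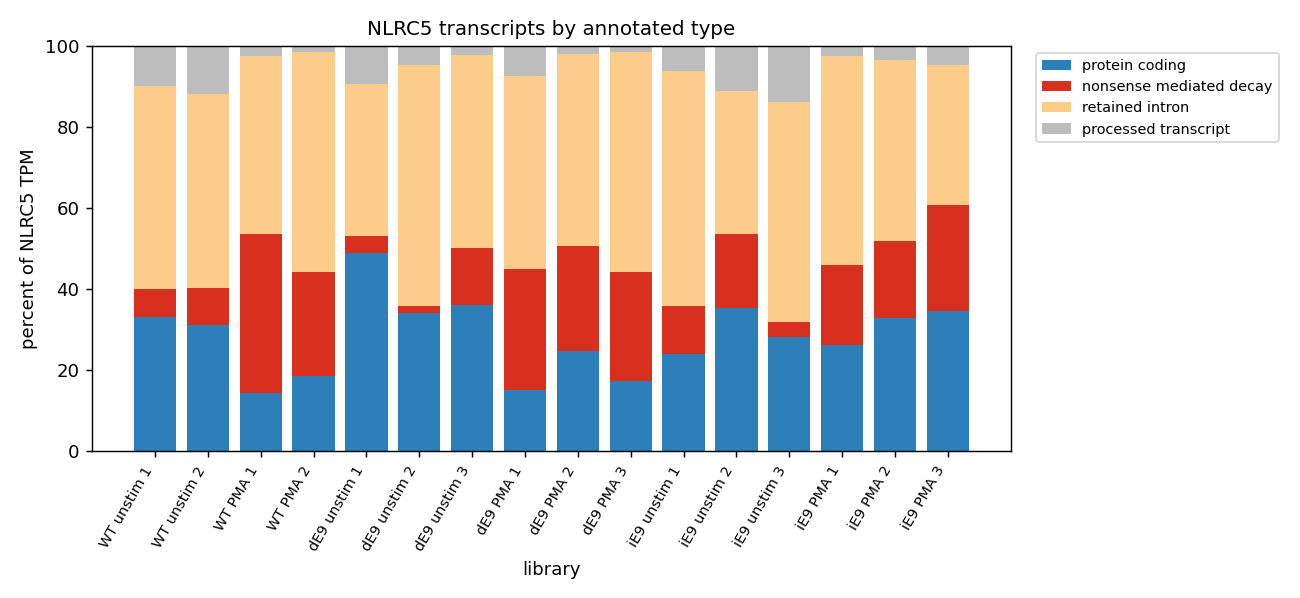
Share of NLRC5 TPM in each library by annotated transcript type, stacked to 100%. Transcripts annotated for nonsense-mediated decay take a larger share in every PMA library than in any unstimulated library of its line.

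Other genes of the pathway moved less evenly. The main fit's shares of all tested genes called with PMA, given above for each line, apply to these lists too. Among 8 loading partners and trimming enzymes, TAPBPL, a tapasin-related peptide editor, rose in all 3 lines (log2 1.39, 1.36 and 0.76 in WT, dE9 and iE9-labelled cells). Calnexin (CANX), which holds new heavy chains, fell by 0.86 in dE9 and by 1.12 in iE9-labelled cells on the log2 scale, and the other members were not called in any line without the replicate block. With the block, 4 of the 8 were called in WT, 4 in dE9 and 5 in iE9-labelled cells. These included CANX in WT (log2 -0.92, adjusted p = 0.00119) and, in all 3 lines, the chaperone calreticulin (CALR), lower by 0.73 to 0.84, and the aminopeptidase LNPEP, higher by 0.36 to 0.53, with PDIA3, a disulfide isomerase of the loading complex, lower in iE9-labelled cells (-0.49, adjusted p = 0.00367). Those 3 genes were named after their values were seen. In WT, here and below, block calls rest on a shared number only, where deviations of same-numbered libraries correlated at 0.07. The shares of all tested genes called by the block fit are not given. Of the 5 immunoproteasome and PA28 genes, 0 were called in WT. PSMB8 (log2 1.24), PSMB9 (1.45) and PSMB10 (1.20) rose in dE9, and PSMB8 (1.13) and PSMB9 (1.55) rose in iE9-labelled cells. These subunits replace the standard catalytic subunits of the proteasome. With the replicate block, 3 of the 5 were called in WT, 3 in dE9 and 4 in iE9-labelled cells.

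Of 17 class I transcription factors and regulators, 5 rose and 2 fell in WT, 7 rose and 3 fell in dE9, and 8 rose and 3 fell in iE9-labelled cells. Of all tested genes, 11.1% rose and 11.3% fell in WT, and 17.1% and 16.5% in dE9. In iE9-labelled cells 12.6% rose and 14.4% fell. The numbers that fell on this list were near those shares. RELB, an NF-kB subunit, rose in each line, with log2 changes of 2.21 in WT, 2.36 in dE9 and 2.51 in iE9-labelled cells. IRF2, which binds interferon response elements, and STAT2, a partner of IRF9 in interferon signalling, also rose in each line, IRF2 by 1.27, 1.35 and 1.30 and STAT2 by 1.44, 1.69 and 1.60. EZH2, a histone methyltransferase of Polycomb repressive complex 2, fell by 1.07, 1.33 and 0.60.

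The interferon genes IFNG and IFNB1, singled out after their values were seen, were at 3.91 CPM or less and 0.418 CPM or less in every library. IFNG was at 0 to 0.119 CPM in untreated and 0 CPM in treated WT. It was at 0 to 0.0616 and 0.0565 to 0.967 CPM in dE9, and at 0.0524 to 0.652 and 0.308 to 3.91 CPM in iE9-labelled cells. These levels are near the floor, and their part in the class I changes was not tested. JAK1 and JAK2, kinases of the interferon receptors, rose in each line, with log2 changes of 0.98, 1.23 and 0.98 for JAK1 and 0.98, 1.12 and 1.11 for JAK2. Of the class I-like genes, MICA, a ligand of the NKG2D receptor, rose in each line (0.97, 0.84 and 0.88). ULBP1, another NKG2D ligand, fell by 1.70 in WT, by 1.46 in dE9 and by 1.0 in iE9-labelled cells. HLA-DRB1 and HLA-DQB1, of MHC class II, rose in each line, by 2.38, 3.14 and 1.91 and by 2.03, 2.67 and 2.56. Of the 10 genes on the class II list 6 were tested, and 2, 3 and 2 were called higher in WT, dE9 and iE9-labelled cells. HLA-DRA and CD74, named after their values were seen, were at 0.597 CPM or less and 0.691 CPM or less in every library. In iE9-labelled cells HLA-DRA was at 0 CPM.

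Markers of another lymphocyte type moved with PMA. The summed level of 5 B cell markers went from 10.8 to 18.6 CPM up to 31 to 59.4 CPM in WT and from 38.6 to 123 CPM up to 206 to 403 CPM in iE9-labelled cells, and overlapped in dE9, at 7.0 to 24.3 and 9.28 to 155 CPM. CD79A carried most of it, at 402 CPM of the highest sum, while MS4A1 was at 0 in treated WT and treated iE9-labelled cells. Mitochondrially encoded genes took a larger share of counts with PMA, from 3.48% to 3.75% up to 5.76% to 6.04% in WT and from 3.0% to 3.69% up to 5.2% to 6.39% in dE9. In iE9-labelled cells each numbered pair was higher with PMA, at 9.17% and 12.81%, 4.14% and 5.98%, and 3.85% and 5.67%. With these genes left out of the counts, 7, 8 and 7 of the 9 class I genes were called in WT, dE9 and iE9-labelled cells. Otherwise the part of either in the class I changes was not tested.

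Between the lines, the main edgeR fit called 0 of the 9 genes in any comparison. It used all 16 libraries and the filter on low counts. Some other fits called up to 9, as given for each comparison and in the section on processing. The shares of all genes called that stand beside the comparisons are those of the main fit. Every fold change pointed towards the edited line or, between the edited lines, towards iE9-labelled cells. These comparisons share libraries and are given side by side. Untreated iE9-labelled cells against untreated WT gave a median log2 change of 1.34 over the 9 genes, beside 0.01 over all genes, and 1.38% of all tested genes were called in either direction. An unadjusted p under 0.05 was reached by 7 of the 9, the smallest adjusted p was 0.0790 for NLRC5, and 5 were called by DESeq2, 0 by limma voom and 9 by edgeR without the filter. All 9 genes but TAP2 had every iE9-labelled library above every WT library. For such separation, here and in the comparisons below, the share over all tested genes was not counted. With 2 or 3 libraries per group and genes that deviated together, it is a description only. HLA-F had the largest difference (log2 1.78 ± 0.67, adjusted p = 0.213), followed by HLA-B (1.72 ± 0.55, adjusted p = 0.150).

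With PMA, iE9-labelled cells against WT gave a median of 1.34, where the median of all genes was 0.00 and 1.12% of genes were called. Again 7 genes had an unadjusted p under 0.05, 4 were called by DESeq2, 0 by limma voom and 7 by edgeR without the filter, and all 9 genes had every iE9-labelled library above both WT libraries. HLA-F differed by 2.05 ± 0.65 (adjusted p = 0.153), B2M by 1.21 ± 0.39 (adjusted p = 0.164) and TAPBP, the smallest, by 0.50 ± 0.30 (adjusted p = 0.464). Without the 3 libraries that stood apart the differences were smaller: B2M 0.83 with PMA and 0.70 without, and HLA-B 1.08 and 1.29.

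In dE9 against WT, 0% of tested genes were called in either treatment. Untreated cells gave a median of 0.60 over the 9 genes, from 0.14 for TAPBP to 1.08 for HLA-B, with 0 unadjusted p under 0.05, 0 calls by DESeq2 or limma voom and 2 by edgeR without the filter. With PMA the median was 0.75, 4 genes had an unadjusted p under 0.05 (HLA-B, HLA-C, HLA-F and TAP1), and 0 were called by DESeq2 or limma voom, and 4 by edgeR without the filter. HLA-F had the largest difference with PMA (1.87 ± 0.64), and HLA-B had both WT libraries under all dE9 libraries in each treatment.

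**Figure D4:**
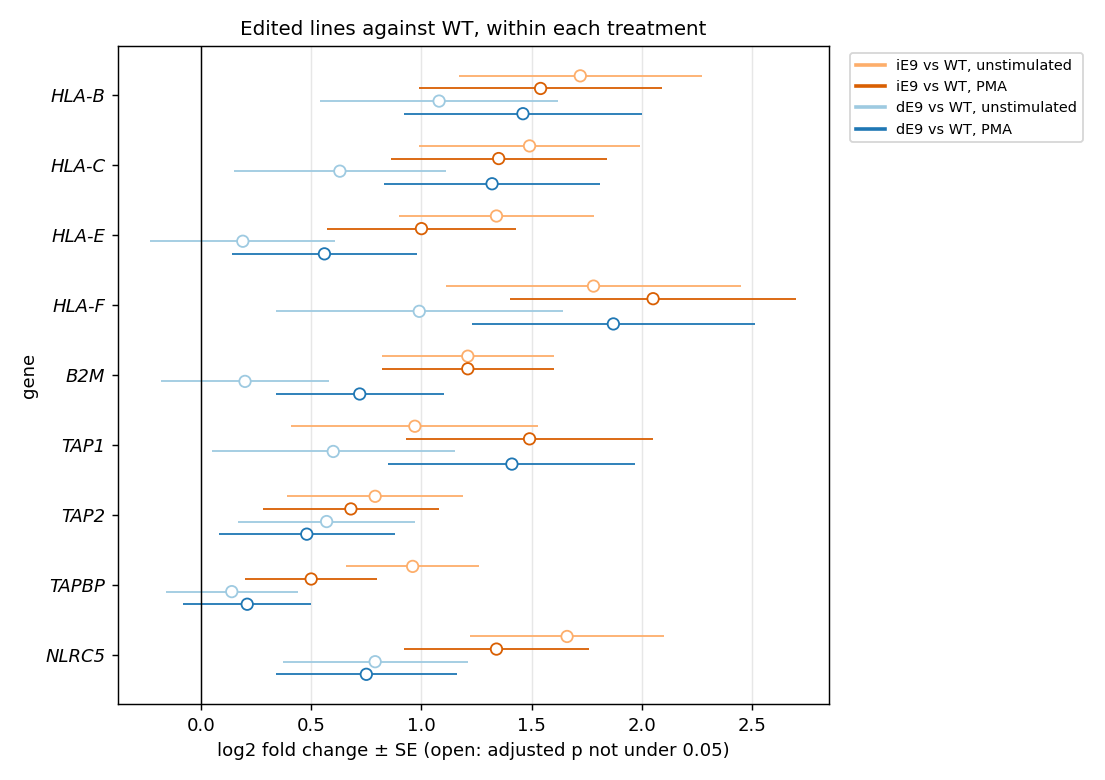
Log2 fold change of each gene in the edited lines against WT within each treatment, with its standard error (all points are open, since none had an adjusted p under 0.05). All values lie above 0, from 0.14 for TAPBP in untreated dE9 cells to 2.05 for HLA-F in treated iE9-labelled cells.

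Between the edited lines, iE9-labelled minus dE9, the median of the 9 genes was 0.82 without PMA and 0.20 with it, where 1.72% and 2.61% of all tested genes were called. HLA-E differed most without PMA (1.14 ± 0.38, adjusted p = 0.153), and 4 genes (HLA-E, B2M, TAPBP and NLRC5) had an unadjusted p under 0.05. DESeq2 and limma voom called 0, and edgeR without the filter called 6. B2M and TAPBP were the only genes of the 9 whose untreated libraries did not overlap between these lines. With PMA the libraries overlapped for all 9 genes, 0 had an unadjusted p under 0.05, DESeq2, limma voom and edgeR without the filter called 0, and differences ran from 0.03 for HLA-C to 0.59 for NLRC5. Without the 3 libraries that stood apart, 7 of the 9 treated differences turned negative, down to -0.46 for HLA-C. TAPBPL (log2 1.30, adjusted p = 0.0302) and IFNGR1, a chain of the interferon gamma receptor (2.21, adjusted p = 0.0279), were called higher in untreated iE9-labelled cells, among all genes on the pathway lists.

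The response to PMA was not shown to differ between lines for any of the 9 genes. Tested as differences of the PMA log2 changes, 0% of all genes were called in any of the 3 contrasts, 0 of the 9 genes had an unadjusted p under 0.05, and DESeq2 and limma voom called 0. The iE9-labelled response minus the dE9 response ran from -0.82 for HLA-C to -0.02 for TAP2, with standard errors of 0.37 to 0.77. With the replicate block, which takes same-numbered libraries as pairs, 61 of all tested genes and 0 of the 9 were called, with smaller standard errors. HLA-C then differed most, by -0.78 ± 0.15 (adjusted p = 0.0679), followed by HLA-E (-0.62 ± 0.19, adjusted p = 0.175). The iE9-labelled minus WT values ran from -0.46 to 0.52, and the dE9 minus WT values from -0.09 to 0.88.

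The spread between replicates was shared by the genes. In dE9, library 2 was above its group mean for all 9 genes in both treatments, and library 3 was below it for all 9. In iE9-labelled cells, library 1 was above for all 9 and library 2 below for all 9, in both treatments. In treated dE9 cells library 2 held 473 CPM of TAP1 and library 3 held 104 CPM. On the log2 scale, the mean deviation of the 9 genes was 0.66 in treated dE9 library 2 and -0.72 in library 3. Across the 16 libraries the median correlation of these deviations over pairs of genes was 0.87, with 0.98 for HLA-B and HLA-C and 0.48, the lowest, for TAPBP and NLRC5. The libraries share depth scaling and group means, and the values are a description. In WT the deviations were smaller, between -0.36 and 0.36.

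**Figure D5:**
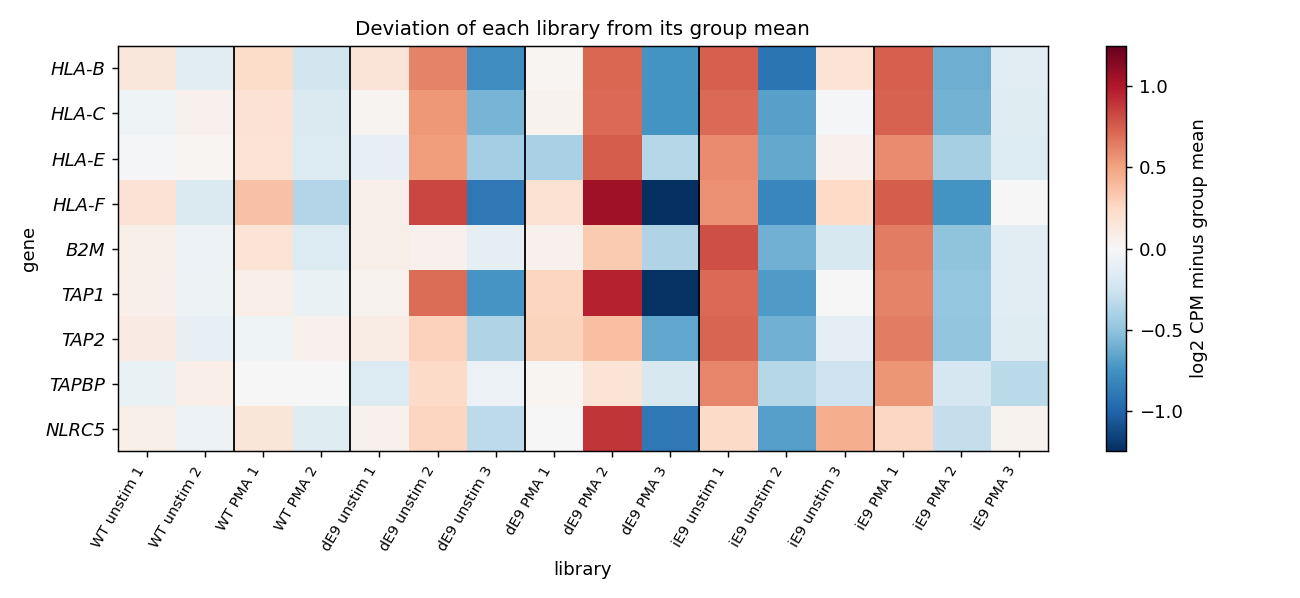
Deviation of log2 CPM from the group mean for each gene and library (red above, blue below). Columns of 1 color in the edited lines show the 9 genes moving together, as in dE9 library 3 and iE9-labelled library 1 under both treatments.

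Among the tested genes outside the set whose profile over the 16 libraries was most like the mean profile of the 9 were SLC16A3 (Pearson r = 0.962), BTN3A3 (0.962), ZNF266 (0.961), CYLD (0.961), CD28 (0.960), HLA-DRB5 (0.956), IRF9 (0.955) and BTN3A2 (0.955), out of 10870 genes compared. The groups share treatment and line, which separate these libraries, so the values are given with no test. SLC16A3 encodes a monocarboxylate transporter, the butyrophilins BTN3A2 and BTN3A3 act in phosphoantigen sensing by gamma delta T cells, and CYLD is a deubiquitinase that restrains NF-kB signalling. IRF9 is also on the list of class I transcription genes, and was called higher in untreated iE9-labelled cells than in WT (log2 1.63, adjusted p = 0.0290). HLA-DRB5 was at 20.3 CPM at most.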

How the data were processed

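Polyadenylated RNA of 16 libraries had been quantified by the authors with Salmon, per the submitters' processing notes, which also name DESeq2 and hg38. Software versions and strandedness: not given in the sources used here. The deposited table of each library holds, per the file headers, estimated counts for every transcript (Salmon's expected counts), its TPM, and its effective length. Their gene table of TPM had 0 unused columns and matched gene sums of transcript TPM to a relative difference of 2.36e-16. All 205870 transcripts matched GENCODE release 29.

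Gene counts are sums over transcripts, rounded to whole numbers. The test was the two-sided quasi-likelihood F test of edgeR 4.0.16 (R 4.3.3), fitted to all 16 libraries with TMM factors and 1 coefficient for each of 6 groups, without robust estimation. Of 33304 genes with a count, 18073 passed filterByExpr. Adjusted p-values are Benjamini-Hochberg over all tested genes within a comparison. CPM is TMM-scaled, fold changes are log2 with their SE, and counts per library limit the precision of low genes. The common biological coefficient of variation was 31.8%. No replicates agreed within sampling noise (lowest chi-square per degree of freedom 7.55). The share of HLA-E among the heavy chains was compared by exact permutation over libraries, and the shares of the other heavy chains were not tested.

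Deviations from group means correlated between same-numbered libraries at 0.07 in WT, 0.24 to 0.30 in dE9 and 0.19 to 0.44 in iE9. Numbers were therefore taken to pair treatments in the edited lines only, without a label that says so. The replicate block fit used the numbers in WT as well, where the correlation was 0.07.

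Alternatives were DESeq2 1.42.0, limma 3.58.1 voom, DESeq2 size factors, no filter on low counts, only the libraries compared, an effective length offset, no mitochondrial genes, leaving out libraries, a replicate block and, chosen after seeing the data, coding transcripts only. Motifs were searched on both strands, and sequences of 31 bases compared between genes of the annotation. The members and lists were chosen with earlier results of these data known. All 9 members are named, with up to 4 called genes of each list with the smallest adjusted p in a comparison. Genes alike in profile are those of at least 5 CPM with the highest correlation, and some genes that these rules name are not reported here.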

Additional observations from a re-analysis of the deposited data

How the results depend on the processing

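The direction of all 9 PMA changes held in each line under every alternative. Leaving out 1 library gave 3 to 7 genes called in WT, 7 to 8 in dE9 and 6 to 9 in iE9-labelled cells. Between lines, calls varied with the tool, the filter and the libraries fitted. Without a filter on low counts 9 genes were called in untreated and 7 in treated iE9-labelled cells against WT, 2 and 4 in dE9 against WT, and 6 in untreated iE9-labelled cells against dE9. DESeq2 called 5 and 4 in iE9-labelled cells against WT. The fit on only the libraries compared called 3 with PMA, and leaving out 1 library called 0 to 1 without PMA. The cause of these differences between settings was not tested. Over all genes, alternatives other than leaving out 1 library called 144 to 1220 in untreated and 119 to 1162 in treated iE9-labelled cells against WT. They called 0 to 132 and 0 to 314 in dE9 against WT, and 161 to 1319 in untreated iE9-labelled cells against dE9. The main fit called 249, 203, 0, 0 and 311 in that order. Shares of all genes at each single setting are not given.

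Between the edited lines, signs changed. Without the 3 libraries that stood apart, log2 changes without PMA were -0.05 for TAP1 and -0.23 for TAP2. With PMA they were -0.42 for HLA-B, -0.46 for HLA-C, -0.10 for HLA-E, -0.31 for HLA-F, -0.28 for TAP1, -0.06 for TAP2 and -0.03 for TAPBP. The effective length offset gave -0.06 for HLA-C with PMA. Leaving out 1 library gave, with PMA, -0.38 to 0.52 for HLA-B, -0.43 to 0.46 for HLA-C, -0.27 to 0.84 for HLA-F, -0.33 to 0.65 for TAP1, -0.19 to 0.42 for TAP2 and -0.04 to 0.45 for TAPBP. Without PMA it gave -0.04 to 0.79 for TAP1 and -0.22 to 0.48 for TAP2, and -0.11 to 0.39 for HLA-E in dE9 against WT.

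With the replicate block 9 genes were called with PMA in each line, and 0 between lines. The share of all tested genes called with PMA by the block fit is not given, and the main-fit shares do not apply to it. In WT, where the pairing rests on a shared number only, the block added TAP1 (adjusted p = 0.00258) and TAP2 (adjusted p = 0.00634). Counted on protein-coding transcripts only, the HDAC7 exon 9 share in treated WT was 61.18% in place of 48.42%. Over all tested genes, 4038 were called with PMA in WT, and 3194 to 8284 under the alternatives (1419 to 4866 leaving out 1 library). The main fit called 6060 in dE9 and 4892 in iE9-labelled cells, and the alternatives 4602 to 8500 and 4079 to 7200.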

Other observations

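TRAC, the constant region of the T cell receptor alpha chain, was at 15.6 to 21.1 CPM in untreated WT and at 192 to 231 CPM after PMA. It rose in each line, with log2 changes of 3.53 ± 0.74 in WT (adjusted p = 0.00392), 3.52 ± 0.61 in dE9 (adjusted p = 0.000564) and 2.05 ± 0.56 in iE9-labelled cells (adjusted p = 0.0140). Between the edited lines TRAC was higher in iE9-labelled cells, by 4.10 ± 0.62 without PMA (adjusted p = 0.00418) and 2.63 ± 0.57 with it (adjusted p = 0.0285). CIITA, the transactivator of MHC class II genes and a relative of NLRC5, stayed between 1.92 and 4.18 CPM in all 16 libraries.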
